A study of Mus musculus with 10 samples.

Results

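The intermediate lobe (IL) of the pituitary of p27-/- mice was compared with that of wild-type (WT) mice, across all genes of the bulk RNA table. The comparison used 7 of the 10 samples of the series, 3 labelled p27-/- and 4 labelled WT, chosen by the genotype in their labels. The other 3 samples, p27-/-;Sox2+/-, lack p27 and also carry a single copy of Sox2, and they entered the model to estimate the spread between samples and are set beside p27-/- at the end. All mice were 2 to 3 months old, and males and females were mixed in each group. The p27 allele was a constitutive null of Cdkn1b, so every cell type of the lobe, and of the rest of the animal, lacked P27, and the mice were kept on a mixed background. RNA from each dissected lobe was amplified and sequenced without strand information, and the deposited values are normalized log2 values per gene. The table holds no read counts, so the depth reached by each library is unknown, and the paper gives only the average that was aimed at. Precision depends on the number of mice and also on read numbers, which cannot be assessed here.

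P27, the product of Cdkn1b, binds and inhibits complexes of cyclins with cyclin-dependent kinases. D-type cyclins with CDK4 or CDK6 open the way from G1 into S phase by releasing E2F factors from the pocket proteins, and cyclin A and B complexes then drive replication and mitosis. The IL is built almost entirely of melanotrophs, endocrine cells that make the hormone precursor POMC and cut it into melanocyte stimulating hormone. They hardly divide in the adult mouse, and IL tumours are the known outcome of p27 loss in older animals. A layer of SOX2-positive stem cells lines the cleft beside them, and the neural posterior lobe lies on their other side. In bulk RNA, fewer cells of a type and less RNA per cell cannot be told apart.

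Cdkn1b (ENSMUSG00000003031, chromosome 6 of GRCm38 from 134920401 to 134925525) had log2 values of 8.54, 8.85, 8.39 and 8.66 in WT and of 8.27, 8.04 and 8.22 in p27-/- replicates 1 to 3. Every p27-/- sample was below every WT sample. The log2 difference, always p27-/- minus WT here, was -0.43 (standard error 0.12, adjusted p = 0.047, limma), or 1.35-fold, and the adjusted p rose to as much as 0.175 when a sample was left out, with the call lost without WT replicates 2 or 4 or any of the p27-/- replicates. A value per gene does not separate the deleted part of the gene from transcript that remains. The defining melanotroph genes were high in all samples. Pomc lay between 18.0 and 19.0 in WT and between 18.57 and 18.99 in p27-/-. Hormone genes of the anterior lobe were also present. Mean log2 values in WT and p27-/- were 13.02 and 12.3 for Gh and 13.65 and 14.04 for Prl. Of the posterior lobe and pituicyte markers, the hormone gene Avp was at 5.38 and 4.6 and Scn7a at 11.07 and 10.33. None of these genes was at 0. Xist was at 14.32 or above in 4 of the 7 samples, WT replicates 1 and 2 and p27-/- replicates 1 and 3, and at 9.29 or below in the other 3, which had the high values of the Y-linked Ddx3y, so sexes were mixed in both groups.

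The list means of adjoining tissue markers varied between samples and overlapped between the genotypes. They are given first because a fit with the posterior lobe mean changes the counts below, those of lower genes included. Of 13 tested posterior lobe and pituicyte markers, all 13 had a lower mean in p27-/- than in WT. Only 1, Glul, passed the test (7.69%, against 4.62% of all tested genes). The mean of the list relative to the WT mean was 0.06, -0.91, 0.38 and 0.48 in WT replicates 1 to 4 and -0.69, -0.59 and -0.46 in the p27-/- samples. WT replicate 2 was thus below all p27-/- samples, and the other WT samples were above them. The mean of 11 anterior lobe markers ranged from -0.62 to 1.07 in WT and from -1.0 to 0.1 in p27-/-, so that the groups overlapped. A fit with the posterior lobe mean as a covariate is given beside the results below as a measured value. The part of adjoining tissue in the genes that it removes was not tested further.

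**Figure D1:**
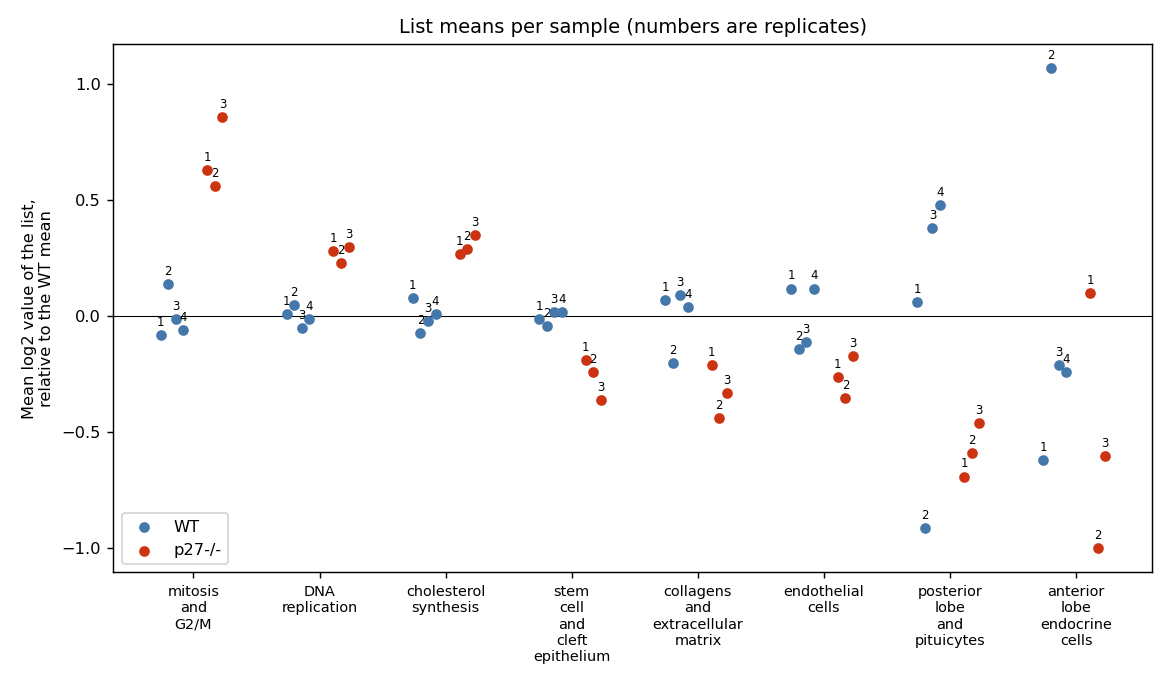
Mean log2 value of the tested members of 8 gene lists in each sample, relative to the mean of the WT samples. Points are single samples, numbered by replicate, with WT in blue and p27-/- in red. The mitosis, DNA replication and cholesterol lists separate the groups upwards and the stem cell list downwards, while WT replicate 2 lies with or below the p27-/- samples for the posterior lobe list.

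In p27-/- samples 48 of 67 tested genes of the mitotic machinery and 11 of 29 of sterol synthesis were higher, against 3.16% of all tested genes. The D-type cyclin genes Ccnd1 and Ccnd2 were lower, as were 11 of 69 matrix, 8 of 36 Wnt and 10 of 61 guidance genes, against 4.62% of all. With the posterior lobe covariate these counts were 29, 7, 4, 2 and 4. Of 17268 tested genes, 1343 passed an adjusted p of 0.05 (7.78% of those tested). Of these, 545 were higher in p27-/- (3.16%) and 798 lower (4.62%). Differences were mostly small, with a median log2 difference of 0.48 among the higher and of -0.6 among the lower genes, against 0.01 over all tested genes. Only 27 higher and 57 lower genes differed by 1 or more on the log2 scale. In 3552 tested genes (20.6%) the samples of the groups did not overlap, and 1284 of the 1343 were among them. The share past the test was 6.12% for genes with a mean log2 value from 3 to 6, 8.96% from 6 to 9 and 7.69% above 9. How many genes passed depended on single samples. Their number was 815 without WT replicate 3, 690 without WT replicate 4, and 609, 572 and 403 without p27-/- replicates 1, 2 and 3. A total of 301 genes, 116 higher and 185 lower, passed in each of the 7 fits that left out a sample. With the posterior lobe covariate 373 genes passed (2.16%), 137 higher (0.793%) and 236 lower (1.37%), of which 369 were among the 1343, 135 higher and 234 lower.

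**Figure D2:**
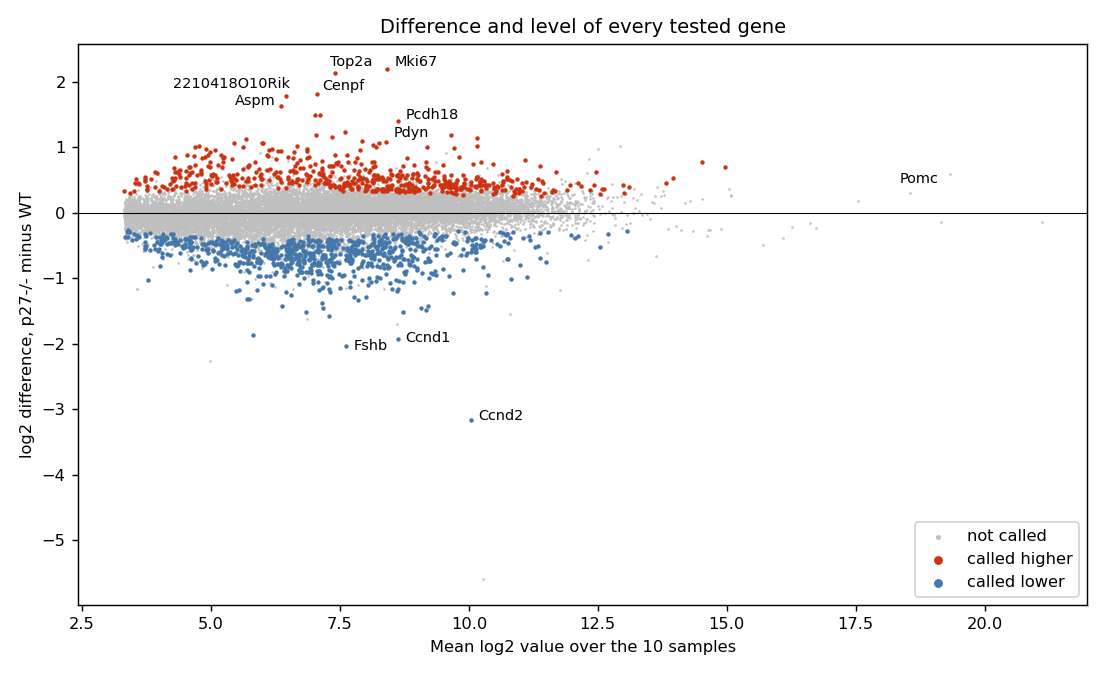
Log2 difference (p27-/- minus WT) of each tested gene against its mean log2 value over the 10 samples. Grey points did not pass the test, red points were higher and blue points lower in p27-/-. Ccnd2 at -3.16 stands below all other genes that passed, and the most raised genes, Mki67 and Top2a, lie at 2.19 and 2.13. The grey point at -5.60 is a gene without a symbol here whose WT samples spread from 7.06 to 15.56.

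Of the D-type cyclins, the G1 partners of CDK4 and CDK6, Ccnd1 and Ccnd2 fell. Ccnd2 (ENSMUSG00000000184, chromosome 6 from 127125162 to 127152188) had the smallest p of the comparison, with log2 values of 11.55, 11.87, 11.59 and 11.54 in WT and 8.43, 8.68 and 8.34 in p27-/-. Its values differed 8.91-fold, at -3.16 on the log2 scale (standard error 0.16, adjusted p = 3.35e-07), and the gap between the groups was many times the spread within either. Ccnd1 was at 9.4, 9.97, 9.35 and 9.77 in WT and at 7.64, 8.01 and 7.43 in p27-/-, a 3.82-fold difference (log2 -1.93, standard error 0.17, adjusted p = 5.33e-05). Both fell in each fit tried. Ccnd3, the remaining D-type cyclin, was at 8.49, 8.49, 7.97 and 8.31 in WT and at 7.87, 8.09 and 8.05 in p27-/-. These values overlapped, and the difference of -0.31 did not pass (adjusted p = 0.156), although it did pass without WT replicate 3.

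Calls among the other regulators of G1 rested on single samples. Of 28 tested G1 cyclins, kinases, inhibitors and E2F factors, 4 were higher (14.3%, against 3.16% of all tested genes) and 2, the cyclins above, were lower (7.14%, against 4.62%), with a median difference of 0.19. The 4 were Tfdp1, the dimer partner of E2F factors (0.54, adjusted p = 0.0135), Cdkn2c, an inhibitor of CDK4 and CDK6 (0.62, adjusted p = 0.0346), E2f1 (0.45, adjusted p = 0.0374) and Cdk4 (0.34). None of the 4 remained past the threshold in the fit without p27-/- replicate 3, nor with the posterior lobe covariate, where the list median was 0.16. Without WT replicates 3 or 4, or p27-/- replicates 1 or 2, the number of higher members also fell by over 1.5 times.

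**Figure D3:**
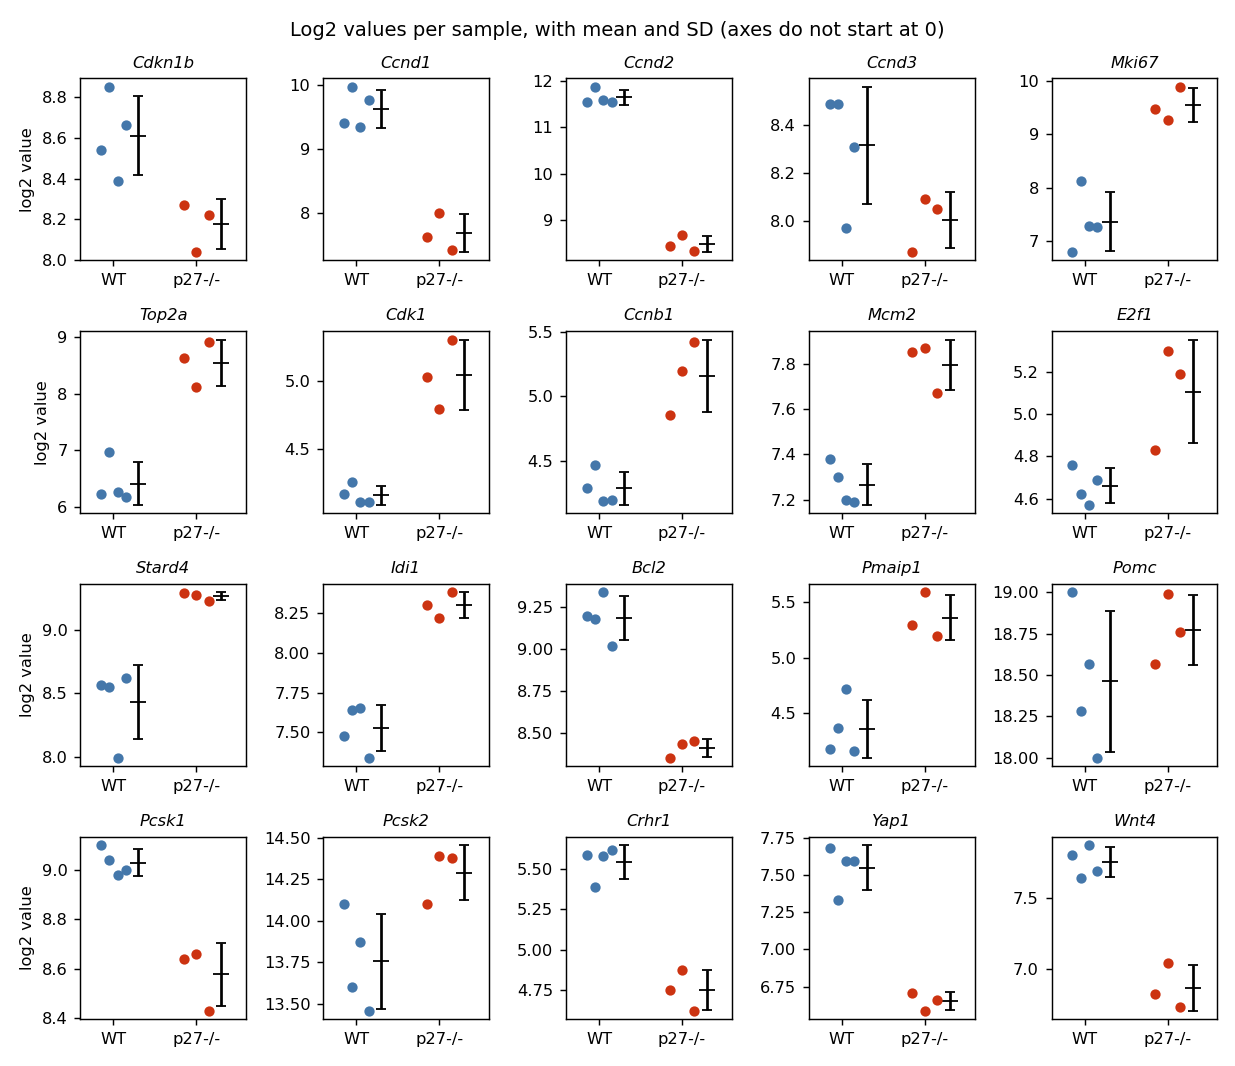
Log2 values of 20 genes in each sample, with WT in blue and p27-/- in red. The mark and bar beside the points give the mean and SD, and each panel has its own scale. Ccnd2, Ccnd1 and Bcl2 are lower and Mki67, Top2a and Stard4 higher in every p27-/- sample, while Ccnd3 and Pomc overlap.

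Most genes of G2 and mitosis rose. Of 67 tested members of this list, 48 were higher in p27-/- (71.6%, against 3.16% of all tested genes) and 0 were lower, and all 67 differences were above 0, with a median of 0.59. The list mean relative to WT was -0.08, 0.14, -0.01 and -0.06 in WT and 0.63, 0.56 and 0.86 in p27-/-. No WT sample reached the lowest p27-/- sample. With 1 sample left out, between 25 and 47 members passed, the fewest without p27-/- replicate 3, which also had the highest list mean. With the posterior lobe covariate 29 passed, and the list median was 0.55.

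Mki67, the marker of dividing cells, was at 6.79, 8.12, 7.27 and 7.26 in WT and at 9.47, 9.27 and 9.89 in p27-/-. This was a 4.55-fold difference (log2 2.19, standard error 0.24, adjusted p = 0.000396), the greatest rise among all genes that passed. Top2a, the topoisomerase that untangles replicated DNA, was at 6.24, 6.98, 6.27 and 6.18 in WT and at 8.62, 8.11 and 8.91 in p27-/-. It rose 4.39-fold (log2 2.13, standard error 0.22, adjusted p = 0.000246). WT replicate 2 had the highest WT value of both genes, yet stayed below each p27-/- sample. Cenpf, a kinetochore protein, rose by 1.82 (adjusted p = 0.000764), and Aspm, which acts at the spindle poles, by 1.63 (adjusted p = 0.000445). Hmmr, a spindle protein, rose by 1.13 and Nuf2, of the NDC80 kinetochore complex, by 0.85. Stil, needed to build centrioles, rose by 0.89, and Gas2l3, which links actin and microtubules in division, by 1.16.

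The kinase that starts mitosis and its cyclins rose as well. Cdk1 was at 4.17, 4.26, 4.11 and 4.11 in WT and at 5.03, 4.79 and 5.3 in p27-/- (log2 0.88, standard error 0.14, adjusted p = 0.00279). Ccnb1 was at 4.29, 4.47, 4.19 and 4.2 against 4.86, 5.2 and 5.42 (log2 0.87, standard error 0.15, adjusted p = 0.00493). The groups did not overlap for either gene. Ccna2 was at 5.76, 6.39, 6.01 and 5.72 against 6.79, 6.63 and 7.3 (log2 0.94, standard error 0.19, adjusted p = 0.0107), and its call was lost without p27-/- replicate 3 (adjusted p = 0.0669) and with the posterior lobe covariate (adjusted p = 0.0593).

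Many promoters of mitotic genes hold the letters TTTGAA, the cell cycle homology region through which the DREAM and MuvB complexes act, together with CCAAT, the site of NF-Y. RefSeq promoter windows of GRCm38.p6 run from 250 bases before to 50 bases after an annotated start, called the start below. Windows were found for 11176 of the 14326 tested genes with a matched RefSeq entry. They were searched for both words on both strands, and neither word contains the other. TTTGAA was in a window of 37 of 55 mitotic genes (67.3%), of 7 of 39 DNA replication genes (17.9%) and of 1638 of all 11176 (14.7%). The share was 24.7% of 401 higher genes, 19.3% of the 352 of these outside both lists, and 17.3% of 417 lower genes. CCAAT was in a window of 41 of the 55 mitotic genes (74.5%), against 42.8% of all 11176 genes. In 17 of 20 cholesterol genes (85.0%) CCAAT was present. A further word searched, TCACNCCAC, with N for any base, was in 0 of these 20 and in 1.4% of all 11176 genes. The letters TTTGGCGC or TTTCCCGC, of the E2F kind, were in a window of 28.2% of the DNA replication, 10.9% of the mitotic and 3.26% of all 11176 genes. A match is a description of the letters and not evidence of a bound factor.

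The last 150 bases before the start are printed for 4 mitotic genes of the comparison, to show how these words sit, and for the sterol gene Idi1 as a second group with CCAAT. They are RefSeq sequence of GRCm38.p6, written 5′ to 3′ on the strand of the gene, with matches to TTTGAA and to CCAAT, read on either strand, in capitals.
Cdk1, chr10:69352913-69353062, minus strand: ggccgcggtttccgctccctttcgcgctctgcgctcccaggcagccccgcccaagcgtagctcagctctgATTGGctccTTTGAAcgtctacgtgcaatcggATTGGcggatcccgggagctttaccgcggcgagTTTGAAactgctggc
Top2a, chr11:99024190-99024339, minus strand: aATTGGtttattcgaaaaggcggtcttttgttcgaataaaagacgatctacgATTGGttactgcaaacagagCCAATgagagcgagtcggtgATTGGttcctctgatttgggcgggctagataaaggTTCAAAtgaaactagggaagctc
Mki67, chr7:135716380-135716529, minus strand: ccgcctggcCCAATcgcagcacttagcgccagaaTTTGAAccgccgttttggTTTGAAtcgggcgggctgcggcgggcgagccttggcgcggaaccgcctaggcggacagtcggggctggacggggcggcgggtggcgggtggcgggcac
Ccnb1, chr13:100786487-100786636, minus strand: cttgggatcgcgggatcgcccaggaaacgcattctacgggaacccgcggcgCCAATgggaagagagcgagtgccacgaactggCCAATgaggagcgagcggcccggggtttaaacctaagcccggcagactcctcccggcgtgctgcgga
Idi1, chr13:8885456-8885605, plus strand: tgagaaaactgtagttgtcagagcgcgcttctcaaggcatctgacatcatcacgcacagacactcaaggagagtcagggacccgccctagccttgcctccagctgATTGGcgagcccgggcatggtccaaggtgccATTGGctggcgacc
In Cdk1, TTTGAA begins 71 and 15 bases before the start, with the CCAAT words at 80 and 48. In Top2a it begins at 23, downstream of 4 CCAAT words, and in Mki67 at 116 and 98. These distances are from the start of the window. The annotated spans of Top2a and Mki67, on the minus strand, reach to 99024199 and 135716450. Part of each of these stretches thus lies inside the annotated gene. Ccnb1 has 2 CCAAT words, at 99 and 67, and no TTTGAA in the stretch shown. Idi1 likewise has CCAAT alone, at 45 and 14.

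Fewer genes of DNA replication passed. Of 48 tested members, 10 were higher in the test (20.8%, against 3.16% of all tested genes) and 0 lower. Of the differences, 46 were above 0, and the median was 0.31. Tipin, of the fork protection complex, was at 7.67, 7.68, 7.4 and 7.6 in WT and at 8.1, 8.08 and 8.24 in p27-/- (log2 0.55, adjusted p = 0.00726). Mcm2, a subunit of the replicative helicase, was at 7.38, 7.3, 7.2 and 7.19 against 7.85, 7.87 and 7.67 (log2 0.53, adjusted p = 0.00797). Neither gene overlapped between the groups. Dbf4, the activator of the CDC7 kinase (0.56), the ribonucleotide reductase subunit Rrm2 (0.69) and Orc6, of the origin recognition complex (0.51), also passed. The count of 10 fell to 2 without p27-/- replicate 3 and was moved over 1.5 times by leaving out WT replicates 3 or 4 or p27-/- replicates 1 or 2. With the posterior lobe covariate 1 member passed, and the list median was 0.27. Among the clustered histone genes, 3 of 25 were higher, against 3.16% of all tested genes. The smallest p was that of the linker histone gene Hist1h1b (0.63, adjusted p = 0.00204). The count of 3 fell to 1 without p27-/- replicates 1 or 3 and with the posterior lobe covariate. It rose to 5 without WT replicate 1. Reads of these near-identical genes may be shared between copies.

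**Figure D4:**
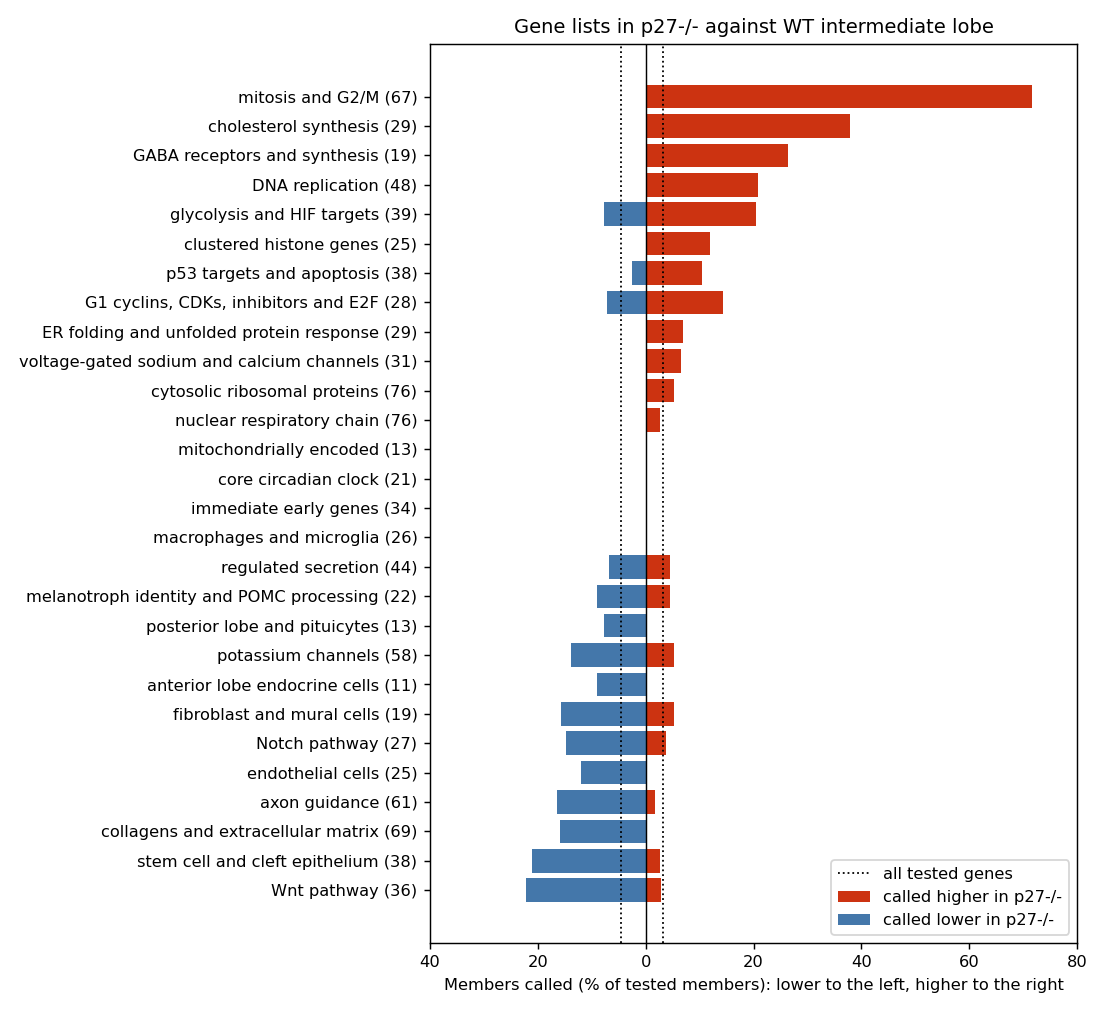
Share of the tested members of each gene list that were higher (red, to the right) or lower (blue, to the left) in p27-/-, with the number tested in brackets. Dotted lines give the shares over all tested genes, 3.16% and 4.62%. The mitosis list reaches 71.6% and the cholesterol list 37.9% higher, and the Wnt list has the greatest lower share.

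Among the lists tested, that of sterol synthesis and uptake had the next highest share of higher genes after mitosis. Of 29 tested members, 11 were higher (37.9%, against 3.16% of all tested genes) and 0 lower, with a median of 0.28. The list mean relative to WT was between -0.07 and 0.08 in WT and between 0.27 and 0.35 in p27-/-. Stard4, a carrier of cholesterol, was at 8.56, 8.55, 7.99 and 8.62 in WT and at 9.29, 9.27 and 9.23 in p27-/- (log2 0.84, standard error 0.13, adjusted p = 0.00285). Idi1, which makes dimethylallyl diphosphate, was at 7.48, 7.64, 7.65 and 7.34 against 8.3, 8.22 and 8.38 (log2 0.77, standard error 0.14, adjusted p = 0.00616). Every p27-/- sample was above every WT sample for both. Sqle, the epoxidase of squalene, rose by 0.48 (adjusted p = 0.00611). These 3 passed in each fit that left out a sample and with the posterior lobe covariate, in which 7 members of the list passed and the list median was 0.32. The count was 7 without WT replicate 3 and was also moved over 1.5 times without WT replicate 4 or p27-/- replicate 3.

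Genes of glycolysis and targets of hypoxia-inducible factors gave calls in both directions, which depended on single samples. Of 39 tested, 8 were higher (20.5%, against 3.16% of all tested genes) and 3 lower (7.69%, against 4.62%). Ldha, which turns pyruvate into lactate, was at 10.49, 10.21, 9.85 and 10.11 in WT and at 10.99, 10.67 and 11.06 in p27-/- (log2 0.74, adjusted p = 0.00607). Its partner subunit Ldhb fell, from 8.44, 8.15, 8.28 and 8.21 to 7.69, 7.74 and 7.47 (log2 -0.64, adjusted p = 0.0224). The groups did not overlap for either subunit. The call of Ldhb was lost without p27-/- replicates 1 or 3 and with the posterior lobe covariate, and that of Ldha was not. Ankrd37, a hypoxia target, rose by 0.6, and the kinases and isomerase Pfkp and Tpi1 of glycolysis by 0.44 and 0.42. The number of higher members fell to 2 without p27-/- replicate 3 and likewise to 2 with the covariate, and WT replicates 3 and 4 and p27-/- replicate 2 also moved it over 1.5 times. The number of lower members fell to 0 without p27-/- replicates 1 or 3 and with the covariate, and to 1 without WT replicate 4 or p27-/- replicate 2.

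Regulators of cell death changed in a few members. Of 38 genes of the p53 and apoptosis list, 4 were higher (10.5%, against 3.16% of all tested genes) and 1 was lower (2.63%, against 4.62%). Bcl2, the inhibitor of apoptosis, was at 9.2, 9.18, 9.34 and 9.02 in WT and at 8.35, 8.43 and 8.45 in p27-/- (log2 -0.78, standard error 0.09, adjusted p = 0.000472). Pmaip1, which encodes the BH3-only protein NOXA, was at 4.18, 4.37, 4.72 and 4.16 in WT and at 5.3, 5.59 and 5.2 in p27-/- (log2 1.0, standard error 0.14, adjusted p = 0.00149). Both passed in each fit tried at 0.05, and the samples of the groups did not overlap. Gadd45a, a stress-induced gene (0.61), Bnip3, a mitophagy receptor (0.53), and Btg2, an antiproliferative gene (0.42), also passed. Each lost its call without WT replicate 4, p27-/- replicate 2 or p27-/- replicate 3, among others, and with the posterior lobe covariate.

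Few genes of the melanotroph programme passed the test. Of 22 tested members of the list, 1 was higher (4.55%, against 3.16% of all tested genes) and 2 were lower (9.09%, against 4.62%). Pomc had a log2 difference of 0.31 (adjusted p = 0.454), Tbx19, the T-box factor of POMC cells, of 0.06 (adjusted p = 0.728), and Pax7, which specifies melanotrophs, of 0.23 (adjusted p = 0.247). The proprotein convertases, which cut POMC in turn, moved in opposite directions. Pcsk1, which makes the first cuts, was at 9.1, 9.04, 8.98 and 9.0 in WT and at 8.64, 8.66 and 8.43 in p27-/- (log2 -0.45, adjusted p = 0.0206). Pcsk2, which makes the later cuts to melanocyte stimulating hormone, was at 14.1, 13.6, 13.87 and 13.46 against 14.1, 14.39 and 14.38 (log2 0.53, adjusted p = 0.0352). WT replicate 1 and p27-/- replicate 1 of Pcsk2 both round to 14.1. The call of Pcsk1 was lost without p27-/- replicate 3 (adjusted p = 0.112), and that of Pcsk2 without WT replicates 2, 3 or 4 or p27-/- replicates 2 or 3, and both with the posterior lobe covariate. Crhr1, a receptor for corticotropin-releasing hormone, was at 5.59, 5.39, 5.58 and 5.62 in WT and at 4.75, 4.87 and 4.62 in p27-/- (log2 -0.8, adjusted p = 0.00146), and passed in each fit tried at 0.05.

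Receptors and channels of these excitable cells showed single changes. GABA is the transmitter that, with dopamine, reaches melanotrophs from the hypothalamus. Of 19 genes of its receptors and synthesis, 5 were higher (26.3%, against 3.16% of all tested genes) and 0 lower. Gabrq, the theta subunit of the GABA-A receptor, was at 4.21, 4.32, 4.25 and 4.5 in WT and at 4.93, 5.13 and 5.1 in p27-/- (log2 0.73, adjusted p = 0.00196). Gad2, which makes GABA, was at 11.33, 11.1, 10.67 and 10.73 against 11.68, 11.55 and 12.07 (log2 0.81, adjusted p = 0.0224). Gabrq passed in every fit with a sample left out and with the covariate, and it alone did so among the 5. The call of Gad2 was lost without WT replicates 3 or 4 or p27-/- replicates 1 or 3. Of 58 potassium channel genes, 3 were higher (5.17%, against 3.16% of all tested genes) and 8 lower (13.8%, against 4.62%). The 8 became 2 without WT replicate 4, p27-/- replicate 2 or p27-/- replicate 3 and with the posterior lobe covariate, 3 without p27-/- replicate 1 and 5 without WT replicate 3. The 2-pore channel Kcnk3 (0.65, adjusted p = 0.00295) and the channel partner Kcnip3 (0.5, adjusted p = 0.00279) rose, and Kcnd3, which carries A-type current, fell (-0.59, adjusted p = 0.00409). Of 31 sodium and calcium channel genes 2 were higher (6.45%, against 3.16% of all tested genes). These were Cacna1i, a T-type calcium channel (0.78, adjusted p = 0.000841), and the auxiliary subunit Cacng2 (0.59, adjusted p = 0.00816). The call of Cacng2 was lost with the covariate (adjusted p = 0.0526). Of 44 genes of regulated secretion, 2 were higher (4.55%, against 3.16% of all tested genes) and 3 lower (6.82%, against 4.62%). Rab27a, a granule GTPase, was at 10.01, 9.79, 9.8 and 9.81 in WT and at 10.52, 10.76 and 10.6 in p27-/- (0.77, adjusted p = 0.00352), while its relative Rab27b fell (-0.39, adjusted p = 0.0127). The call of Rab27b was lost without p27-/- replicate 3 and with the covariate, and that of Rab27a in neither.

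Some stem cell and cleft epithelium genes were lower, and the stem cell factors Sox2 and Sox9 did not pass the test. Sox2 was at 7.34, 7.39, 7.75 and 7.34 in WT and at 7.33, 7.45 and 7.08 in p27-/- (log2 -0.17, adjusted p = 0.459), and Sox9 at 8.44, 8.32, 8.53 and 8.6 against 8.35, 8.23 and 8.32 (log2 -0.17, adjusted p = 0.337). Both overlapped between the groups. Of 38 tested members of the list, 8 were lower (21.1%, against 4.62% of all tested genes) and 1 was higher, with a median of -0.17. Yap1, the effector of the Hippo pathway, was at 7.68, 7.33, 7.59 and 7.59 in WT and at 6.71, 6.59 and 6.66 in p27-/- (log2 -0.89, standard error 0.11, adjusted p = 0.000841). Aldh1a1, which makes retinoic acid, was at 9.15, 8.73, 8.76 and 8.72 against 8.25, 7.74 and 7.54 (log2 -1.0, adjusted p = 0.00876). Nes, the intermediate filament nestin, fell by 0.76, and Cdh1, which encodes E-cadherin, by 0.58. Of the list, Yap1 alone passed in every fit that left out a sample, and without p27-/- replicate 3 it was the only one that fell. With the posterior lobe covariate 4 members fell, Yap1 and Cdh1 among them (adjusted p = 0.00771 and 0.021), and the list median stayed at -0.17.

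Collagens and other matrix genes were lower in 11 of 69 tested members (15.9%, against 4.62% of all tested genes) and higher in 0, with a median of -0.26. Timp3, an inhibitor of metalloproteinases, was at 11.52, 11.02, 11.52 and 11.39 in WT and at 10.42, 10.4 and 10.23 in p27-/- (log2 -1.01, standard error 0.13, adjusted p = 0.000875). Lamb1, a laminin chain of basement membranes, was at 8.2, 7.49, 8.01 and 7.83 against 6.92, 6.84 and 7.0 (log2 -0.96, adjusted p = 0.00365). Prelp, a leucine-rich matrix protein, was at 11.17, 10.43, 11.01 and 11.02 against 10.14, 9.99 and 9.76 (log2 -0.95, adjusted p = 0.00702). WT replicate 2, which was lowest for the posterior lobe markers, was also the lowest WT sample for these 3 genes, and it remained above the p27-/- samples. All 3 fell with the posterior lobe covariate as well, at -0.83, -0.76 and -0.71, as did 4 members of the list in all. The list median with it was -0.17. The covariate moved the differences of Spon1, a secreted matrix protein, and Fat3, an atypical cadherin, further. Spon1 was at 8.6, 7.0, 8.4 and 8.6 in WT and at 6.47, 6.38 and 6.87 in p27-/-, and its difference of -1.58 became -0.8 with the covariate. For Fat3, -1.48 became -0.81. Both genes still passed with the covariate (adjusted p = 0.0362 for Spon1 and 0.0272 for Fat3). Both calls were lost without WT replicates 3 or 4 or any p27-/- replicate, and that of Spon1 also without WT replicate 1. Without WT replicate 2, 15 members of the matrix list fell, and without p27-/- replicate 3, 4 did. WT replicates 3 and 4 and p27-/- replicates 1 and 2 also moved the count over 1.5 times.

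Vessel, mural and immune markers gave few calls. Of 25 endothelial genes 3 were lower, against 4.62% of all tested genes, and 0 higher. Of their differences 24 were below 0, with a median of -0.2. Kdr, the main VEGF receptor, was at 7.28, 7.02, 7.24 and 7.29 in WT and at 6.2, 6.11 and 6.85 in p27-/- (log2 -0.83, adjusted p = 0.00966), and Flt1 fell by 0.75 (adjusted p = 0.029). None of the 3 passed with the posterior lobe covariate or without p27-/- replicate 2, and the count of 3 also changed over 1.5 times without WT replicates 2 or 4 or p27-/- replicate 1. With the covariate the list median was -0.1. The defining markers Pecam1 (-0.21, adjusted p = 0.507) and Cdh5 (-0.39, adjusted p = 0.0559) did not pass. Among 19 fibroblast and mural cell genes 1 was higher (5.26%, against 3.16% of all tested genes) and 3 were lower (15.8%, against 4.62%). None of these 4 passed with the posterior lobe covariate or without p27-/- replicate 3, and the lower count also changed over 1.5 times without WT replicate 4 or p27-/- replicate 2. None of 26 macrophage and microglia markers passed in limma. An unadjusted p under 0.05 was found for 3 of them, against 4155 of all 17268 tested genes. Their list mean lay between -0.28 and 0.45 in WT and between -0.21 and -0.13 in p27-/-. Among the anterior lobe markers Fshb, a gonadotrope hormone subunit, fell (-2.04, adjusted p = 0.028), from 7.15, 9.24, 9.61 and 9.64 in WT to 7.26, 6.96 and 6.37. WT replicate 1 overlapped the p27-/- samples, and the call was lost without WT replicates 3 or 4 or any p27-/- replicate, and with either lobe's markers as a covariate.

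Genes of Wnt and Notch signalling and of axon guidance were among the lower ones. Of 36 Wnt pathway genes 8 were lower (22.2%, against 4.62% of all tested genes) and 1 was higher. Wnt4, a ligand, was at 7.8, 7.64, 7.87 and 7.69 in WT and at 6.82, 7.04 and 6.73 in p27-/- (log2 -0.89, standard error 0.11, adjusted p = 0.000764), and Dkk3, of the Dickkopf family, at 9.25, 8.8, 8.89 and 9.23 against 8.08, 8.09 and 7.71 (log2 -1.08, standard error 0.14, adjusted p = 0.000764). Sfrp1, a secreted Wnt antagonist, moved the other way, from 7.08, 7.14, 6.36 and 6.97 to 8.13, 8.24 and 8.02 (log2 1.24, standard error 0.16, adjusted p = 0.000841). These 3 passed in each fit tried at 0.05. The number of lower Wnt genes was 3 without p27-/- replicate 2 and 2 with the posterior lobe covariate, and WT replicates 3 and 4 and p27-/- replicates 1 and 3 also moved it over 1.5 times. In the Notch pathway 4 of 27 genes fell (14.8%, against 4.62% of all tested genes) and 1 rose (3.7%, against 3.16%). Those that fell were the receptor Notch1 (-0.76, adjusted p = 0.00818), the coactivator Maml2 (-0.82, adjusted p = 0.00152) and the targets Heyl (-0.62) and Hey1 (-0.61). Mfng, which modifies the receptor, rose (0.78). Notch1 and Maml2 kept their calls with each sample left out and with the covariate, whereas those of Heyl, Hey1 and Mfng were lost without p27-/- replicate 2, among others, and with the covariate. Of 61 axon guidance genes 10 were lower (16.4%, against 4.62% of all tested genes) and 1 higher (1.64%, against 3.16%). The smallest p was that of the Slit receptor Robo1, which fell (-0.68, adjusted p = 0.00251), and the next that of Nrp2, a semaphorin receptor, which rose (0.56, adjusted p = 0.00616). Between 2 and 11 guidance genes fell with a sample left out, fewest without p27-/- replicate 2 and also few without WT replicate 4 or p27-/- replicate 3, and 4 fell with the covariate.

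Among genes with a symbol whose groups did not overlap, the 12 higher and the 12 lower genes of smallest p passed in all fits tried at 0.05, including each fit without a sample and the one with the posterior lobe covariate. They were picked by their p in the main fit, whose samples the other fits share, so this is no independent support. Pdyn, the precursor of dynorphin peptides, was at 7.82, 7.76, 7.89 and 7.84 in WT and at 8.77, 8.98 and 8.97 in p27-/- (log2 1.08, standard error 0.09, adjusted p = 5.33e-05). Sox11, a factor of immature neural and endocrine cells, was at 8.94, 9.29, 8.61 and 9.21 against 10.23, 10.13 and 10.24 (log2 1.19, adjusted p = 0.000396). Pcdh18, a protocadherin, was at 8.05, 8.22, 7.74 and 7.89 against 9.56, 9.03 and 9.56 (log2 1.41, adjusted p = 0.000246). That the samples of the groups do not overlap was a condition for picking these genes and is no result about them. The gene with the smallest p among the higher ones, 2210418O10Rik, differed by 1.79 (5.43, 5.47, 5.24 and 5.48 against 7.26, 7.08 and 7.22), but it has close copies in the genome and reads could be assigned to any of them. Samd3 (1.1) and Diras2, a small GTPase (0.86), complete the higher set together with the mitotic genes above.

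Among the lower genes with the smallest p, Cgnl1, which encodes the junction protein paracingulin, was at 10.02, 9.61, 9.66 and 9.48 in WT and at 8.3, 8.24 and 8.19 in p27-/- (log2 -1.45, standard error 0.12, adjusted p = 5.15e-05). Mef2c, a MADS-box transcription factor, was at 9.01, 9.1, 9.41 and 9.15 against 8.2, 8.08 and 8.09 (log2 -1.04, adjusted p = 0.000241). Fgf1, a fibroblast growth factor, was at 10.6, 10.04, 10.1 and 10.32 against 9.1, 9.22 and 8.78 (log2 -1.23, adjusted p = 0.000348). These 3 were likewise picked among genes whose groups do not overlap. Cntnap2, a neurexin family protein (-1.16), Sntg1, a syntrophin (-0.98), Greb1l, a cofactor of retinoic acid signalling (-1.16), Skap2, an adaptor of Src kinases (-0.91), and Pon2, a paraoxonase (-1.05), fell as well, as did the predicted gene Gm10419 (-1.32). Gnal, a G protein subunit, fell by 1.43 and Phxr4 by 1.46, while Crisp1, of a family of secreted proteins, and the predicted gene Gm10184 both rose by 1.49. Phxr4 lies within the span of Maml2 on chromosome 9, which also fell (-0.82), and reads without strand information may not tell them apart. Reads of the predicted genes could come from similar copies.

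Several further gene groups gave few or no calls. None of 34 immediate early genes, of 21 core clock genes or of 13 mitochondrially encoded genes passed in limma, and 9, 7 and 3 of them had an unadjusted p under 0.05. Over all tested genes, 4155 of 17268 had an unadjusted p under 0.05. Among nuclear genes of the respiratory chain 2 of 76 were higher, which is 2.63% against 3.16% over all genes, and among cytosolic ribosomal protein genes 4 of 76 (5.26%). Without WT replicate 1 the ribosomal count became 32. Differences were above 0 in 73 of 76 ribosomal and 64 of 76 respiratory chain genes, with medians of 0.22 and 0.1. They were below 0 in 12 of 13 mitochondrially encoded genes, with a median of -0.28. The sample means of these lists overlapped between the genotypes. In the unfolded protein response 25 of 29 differences were above 0, with a median of 0.12. In the test 2 of the 29 were higher (6.9%, against 3.16% of all tested genes). These were Xbp1 (0.42, adjusted p = 0.0197) and Atf4 (0.32, adjusted p = 0.036), and both calls were lost without WT replicate 4 or any of the p27-/- replicates.

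Genes near Cdkn1b were counted separately, since sequence of the strain in which a null allele was made can stay linked to it. Within 10 Mb of Cdkn1b 10 of 105 tested genes passed (9.52%), within 5 Mb 2 of 36 (5.56%), on the rest of chromosome 6 beyond 20 Mb 49 of 483 (10.1%) and on other chromosomes 1020 of 13606 (7.5%). The share near the gene was thus not far from the background, and the median absolute difference, 0.15 within 10 Mb, was close to 0.14 on other chromosomes. The 10 genes were Ccnd2, Pde3a, Gapdh, Ncapd2, Scnn1a, Rad51ap1, D6Wsu163e, Gprc5a, Lmo3 and Ldhb. Ccnd2, 7.77 Mb from Cdkn1b, had by far the greatest difference. Pde3a, a phosphodiesterase that breaks down cyclic nucleotides, was at 7.95, 7.67, 8.16 and 7.89 in WT and at 8.69, 8.84 and 9.22 in p27-/- (log2 1.0, standard error 0.14, adjusted p = 0.00144), at 6.32 Mb. These were the 2 of the 10 that passed with the posterior lobe covariate. Whether linked strain differences contribute to either was not tested. The count of 10 fell to 3 without p27-/- replicate 3, to 5 without p27-/- replicates 1 or 2 and to 6 without WT replicate 4.

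**Figure D5:**
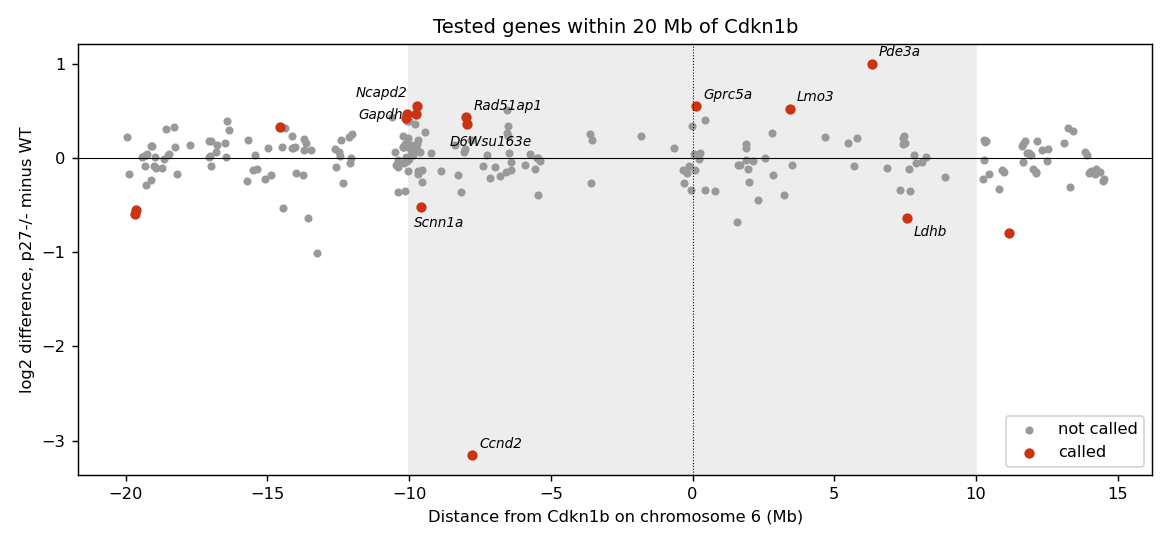
Log2 difference (p27-/- minus WT) of the tested genes within 20 Mb of Cdkn1b on chromosome 6, against their distance from it. Red points passed the test and the shaded band marks 10 Mb to each side. Apart from Ccnd2 at -3.16 and Pde3a at 1.0, the genes in the band lie between -0.68 and 0.55.

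Few genes passed the test between the samples that also lacked a copy of Sox2 and p27-/-. Between p27-/-;Sox2+/- and p27-/- samples, 25 of 17268 genes passed (0.145%). With 3 samples on each side, a gene that did not pass may still differ. Mki67 (-0.83, adjusted p = 0.382), Top2a (-0.97, adjusted p = 0.19) and Cenpf (-1.13, adjusted p = 0.132) did not pass, nor did 2210418O10Rik (-0.06, adjusted p = 0.994). Of the genes named in this report, those that passed included Ccnd2, higher by 0.99 in p27-/-;Sox2+/- than in p27-/- (adjusted p = 0.0485), Cgnl1 (0.82, adjusted p = 0.0307), Crhr1 (0.67, adjusted p = 0.0491) and Cntnap2 (0.78, adjusted p = 0.048). Pmaip1 (-0.87, adjusted p = 0.0435), Nuf2 (-0.65, adjusted p = 0.0378), Gad2 (-1.19, adjusted p = 0.0435) and Pde3a (-1.07, adjusted p = 0.0163) also passed and were lower in p27-/-;Sox2+/-. The p27-/- samples are the same in this comparison and in that with WT, so the differences are not independent.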

How the data were processed

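Bulk RNA of dissected IL was sequenced in 4 WT, 3 p27-/- and 3 p27-/-;Sox2+/- mice, with 1 library each. Per the labels and methods, the authors aligned reads with STAR 2.5.2a, estimated counts per gene with RSEM 1.3.30 on Ensembl transcripts of GRCm38, normalized them with DESeq2 1.18.1 and deposited log2 values for 29527 genes. The transformation is not given in the sources used here. Whether it draws the values of genes with few reads toward their mean, which would understate their differences, was not tested. The depth reached by each library is unknown, and no interval that needs it is given.

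Genes averaging 3.32 or more in log2 units (10 before the logarithm) entered limma 3.58.1 in R 4.3.3 (1 fit of the 3 genotypes over 10 samples, mean-variance trend, Benjamini-Hochberg adjustment over 17268 genes, threshold 0.05). The script was tested on simulated data. Nothing in the labels states whether samples came from separate litters or days, and p-values measure the spread between these mice. Genes were named by symbol through a table of gene names, with positions and promoters from RefSeq of GRCm38.p6. List values, motif counts and figures used Python 3.11.15, pandas 2.3.3, numpy 2.4.6 and matplotlib 3.10.9. Named genes were fixed genes of the cell cycle and of melanotrophs, the 12 genes with a symbol that had the smallest p and the 8 with the greatest difference in each direction among called genes whose groups do not overlap, up to 5 called members of each list, and called genes within 10 Mb of Cdkn1b. Cdk4, Gh, Prl, Avp, Scn7a, Pecam1, Cdh5 and genes without a symbol were added after their values were seen. Some genes that met this rule are not reported here. The comparison, lists and members were chosen with earlier results of these data known, so no pattern here is independent support for them. Alternatives were a filter at 50 or none, only the 7 samples, quantile normalization, centring on medians, weights per array, no trend, a replicate block, Xist or a lobe's markers as a covariate, a threshold of 0.01 and each sample left out.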

Additional observations from a re-analysis of the deposited data

Results flagged for a closer look

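In 14 of 166 measures, named genes and list means, 1 of the 4 WT samples stood apart from the other 3 by Dixon's criterion for the gap to the nearest sample over the range, where about 8.3 would be expected by chance (1 in 20). Groups of 3 were not tested. WT replicate 2 stood apart for Ccnd2 (11.87 against 11.54 to 11.59, gap 0.866 of the range), Top2a (6.98 against 6.18 to 6.27, gap 0.885), Spon1 (7.0 against 8.4 to 8.6, gap 0.878), Sytl5, a granule protein (3.52 against 4.16 to 4.28, gap 0.834), Bnip3 (8.81 against 8.38 to 8.43, gap 0.884), the collagen and matrix mean (-0.2 against 0.04 to 0.09, gap 0.851) and the axon guidance mean (-0.09 against 0.02 to 0.04, gap 0.835). This is also the sample with the lowest posterior lobe mean and the highest anterior lobe mean among WT.

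WT replicate 3 stood apart for Sox2 (7.75 against 7.34 to 7.39, gap 0.885), Orc6 (7.29 against 7.75 to 7.81, gap 0.874) and Stard4 (7.99 against 8.55 to 8.62, gap 0.901). WT replicate 1 stood apart for Rab27a (10.01 against 9.79 to 9.81, gap 0.885), Aldh1a1 (9.15 against 8.72 to 8.76, gap 0.907), Fshb (7.15 against 9.24 to 9.64, gap 0.838) and Gapdh (10.88 against 10.26 to 10.36, gap 0.844). Without the sample that stood apart, Orc6 lost its call, Sox2 was not called, as before, and the other 10 genes still passed in p27-/- against WT.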

How the results depend on the processing

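Of 17268 genes, 1343 passed (545 higher, 798 lower). The number was 831 (319 and 512) with no filter, 807 (305 and 502) with only the 7 samples, 373 (137 and 236) with the posterior lobe covariate and 327 (125 and 202) at an adjusted p under 0.01. With the replicate number as a block it was 595 (202 and 393). The numbers share no stated litter or day and did not deviate together (correlations of -0.013, -0.238 and -0.029), so the block is no paired test. With 1 sample left out it ranged from 403 to 1709 (higher 145 to 725, lower 258 to 984), the most without WT replicate 1. Within 10 Mb of Cdkn1b, 10 genes passed, 6 with no filter, 2 with the posterior lobe covariate, 5 with the block, 4 at 0.01 and 3 to 14 with 1 sample left out. The other alternatives stayed within 1.5 times of these numbers. No named gene that passed changed its direction. Tbx19 turned from 0.06 to -0.01 with the anterior lobe covariate and with quantile normalization, and Xist ranged from -0.09 to 3.03 with 1 sample left out, around 0.97, with -0.02 without p27-/- replicate 1, and neither passed. Xist itself has no value with Xist as the covariate. The depth reached by each library is not known, so no limit from it can be given.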

Other observations

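Some genes outside the report's rule had large differences, and were noted after their values were seen. The gene ENSMUSG00000105361, which has no symbol in the table used here, was at 15.56, 13.07, 7.06 and 13.89 in WT, at 6.76, 6.72 and 6.89 in p27-/- and at 13.05, 13.16 and 6.63 in p27-/-;Sox2+/- samples. It fell into 2 separate levels, the lower one in 1 of the 4 WT, each p27-/- and 1 of the 3 p27-/-;Sox2+/- samples, and the difference of -5.6 between p27-/- and WT did not pass (adjusted p = 0.0601). The gene ENSMUSG00000107379 was at 6.67, 6.7, 6.83 and 6.82 in WT and at 5.09, 4.84 and 4.77 in p27-/- (log2 -1.86, standard error 0.16, adjusted p = 5.33e-05). The pseudogene Gm9000 was at 11.57 in WT replicate 1 and between 3.9 and 5.28 in the other 9 samples.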
